A study of Mus musculus with 13 samples.

Results

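The nuclear lamina and LINC complex genes are the 10 genes Lmna, Lmnb1, Lmnb2, Lbr, Tmpo, Lemd3, Sun1, Sun2, Syne1 and Syne2, taken by symbol from the 33803 gene names that the transcripts of the deposited tables matched. All 10 had a value in all 13 libraries of the series, and all 10 passed the filter on a mean of at least 1 FPKM (a fragment count corrected for transcript length and library size) in cells and in ventricles. The mice were wild-type FvB animals throughout, and atria were removed before tissue or cells were collected. Cardiomyocytes, the contracting muscle cells, were represented by PN30 and PN67 (postnatal days 30 and 67, the later class, from hearts perfused with enzymes by the Langendorff method) and by PN1 and PN1-2 (the neonatal class, from a kit digestion with preplating, which lets fibroblasts settle out first), so stage and isolation cannot be told apart. Cardiac fibroblasts, the cells that make connective tissue, were represented by PN28 and PN60 (later) and by PN1-2 and PN1-3 (neonatal), all by digestion and preplating. Ventricles were represented by 1 library each at E17 (embryonic day 17), PN1, PN10, PN28 and PN90. Each cell class therefore held 2 libraries, the later ones of different ages. The labels do not state whether the neonatal pairs are separate cultures or litters, so each p-value covers the spread between libraries alone, and this may be technical. Cell libraries were made with a TruSeq protocol, and ventricle libraries from RNA depleted of ribosomal RNA, with another kit, so levels in ventricles and in cells differ in library method as well.

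The lamina is a meshwork of lamin filaments under the inner nuclear membrane. Lmna encodes the A-type lamins A and C by alternative splicing, and Lmnb1 and Lmnb2 encode B-type lamins, which keep a lipid anchor at their end. The proteins of Lbr (lamin B receptor, also a sterol reductase), Tmpo (lamina-associated polypeptide 2, LAP2) and Lemd3 (MAN1, which binds SMAD proteins) tie lamins and chromatin to the membrane. SUN proteins, from Sun1 and Sun2, span the inner membrane and grasp the KASH tails of nesprins, from Syne1 and Syne2, which span the outer membrane. This LINC complex couples the lamina to the cytoskeleton, and in muscle it positions nuclei. Mutations in LMNA and in several partners cause dilated cardiomyopathy and muscular dystrophy in humans.

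The sequences on which the isoform results turn are printed first, in the RNA sense from 5′ to 3′, from GENCODE release M21 on mouse build GRCm38. The lamin ends show what separates lamin A (Lmna-201) from lamin C (Lmna-203). Capitals mark the last 4 codons before the stop in Lmna-201 and Lmnb2-201, which form the CaaX box that is farnesylated, and in Lmna-203 its last 17 coding bases, which begin at coding base 1706 counted from the start codon, the first base at which it differs from Lmna-201. Lmna-201 has 290 coding bases from that base on, so lamin C has no CaaX box.
Lmna-201 end: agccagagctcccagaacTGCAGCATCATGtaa
Lmna-203 end: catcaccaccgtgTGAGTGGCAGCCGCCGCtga
Lmnb2-201 end: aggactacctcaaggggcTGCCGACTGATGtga

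Optional coding exons of Sun2, Sun1 and Tmpo that separate the transcripts described below are shown whole and in lower case. The lengths are 96 bases for Sun2, 192, 66 and 111 for Sun1, and 120 and 96 for Tmpo. Each has a length that is a multiple of 3, so leaving it out keeps the reading frame. The Sun2 exon (exon 5 of Sun2-201, minus strand, chr15:79737473-79737568, 96 bases) is in Sun2-201 and Sun2-203 and not in Sun2-202. The Sun1 exons are exons 7, 8 and 9 of Sun1-201 on the plus strand (chr5:139229753-139229944, chr5:139230773-139230838 and chr5:139231127-139231237). Sun1-205 lacks all 3 of them, Sun1-202 lacks exon 7 and Sun1-206 lacks exon 9. The Tmpo exons are exons 5 and 6 of Tmpo-202, which encodes LAP2 beta, on the minus strand (chr10:91153278-91153397 and chr10:91153085-91153180). Tmpo-203 lacks the first, Tmpo-204 and Tmpo-205 lack both, and Tmpo-201, the 4-exon LAP2 alpha transcript, ends in another exon. Tmpo-205 also lacks a further Tmpo exon of 111 bases, which is not printed here.
Sun2 96 nt exon: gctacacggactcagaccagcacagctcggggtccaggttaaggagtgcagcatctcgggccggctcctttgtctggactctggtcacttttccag
Sun1 192 nt exon: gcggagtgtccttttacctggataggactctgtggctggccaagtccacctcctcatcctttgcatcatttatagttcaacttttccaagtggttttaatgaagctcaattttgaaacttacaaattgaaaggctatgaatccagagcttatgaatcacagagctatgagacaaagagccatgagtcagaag
Sun1 66 nt exon: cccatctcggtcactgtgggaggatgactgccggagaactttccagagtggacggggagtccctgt
Sun1 111 nt exon: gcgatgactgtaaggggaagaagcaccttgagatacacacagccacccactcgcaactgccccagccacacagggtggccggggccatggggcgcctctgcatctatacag
Tmpo 120 nt exon: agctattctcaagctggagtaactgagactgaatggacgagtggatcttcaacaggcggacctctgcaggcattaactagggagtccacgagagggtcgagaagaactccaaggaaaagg
Tmpo 96 nt exon: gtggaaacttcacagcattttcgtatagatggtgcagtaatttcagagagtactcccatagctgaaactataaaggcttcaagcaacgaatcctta

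Depth enters these values only indirectly, since total fragment counts are not in the tables. Coverage per unit of FPKM, a stand-in for depth, had medians of 19.5 to 32.8 in the 13 libraries. The 95% confidence bounds deposited with the members' isoforms had a median half-width of 6.40% of the value (1.03% to 36.8%, 339 values of at least 1 FPKM). These bounds cover the authors' estimate within a library, not the spread between animals. Cell identity was checked on 10 cardiomyocyte markers and, at each stage, on the 9 fibroblast markers with a value in the fibroblast libraries of that stage. The 9 were not the same at both stages, and 8 had values at both. In later fibroblasts the cardiomyocyte markers stood at a median of 0.0546% (PN28) and 0.0575% (PN60) of their level in later cardiomyocytes, and in neonatal fibroblasts at 8.66% (PN1-2) and 10.3% (PN1-3) of their level in neonatal cardiomyocytes. The fibroblast markers stood at 14.7% (PN30) and 12.5% (PN67) of fibroblast level in later cardiomyocytes and at 10.2% (PN1) and 11.3% (PN1-2) in neonatal ones. The 8 macrophage and leukocyte markers summed to 970 and 763 FPKM in later fibroblasts (PN28, PN60) and to 167 and 96.7 FPKM in neonatal fibroblasts (PN1-2, PN1-3), where 1 or 2 of the 8 were under 1 FPKM. The 8 endothelial markers summed to 446 (PN30) and 468 FPKM (PN67) in later cardiomyocytes and to 1434 (PN1) and 1228 FPKM (PN1-2) in neonatal cardiomyocytes. The 3 erythroid markers, haemoglobins and Alas2, summed to 1103 and 712 FPKM in later cardiomyocytes and to 20438 and 15376 FPKM in neonatal cardiomyocytes. The part of these other cells in the results below was not tested.

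In the mm9 build of the deposited tables, the 10 loci are chr3:88285070-88313878 (Lmna), chr18:56867467-56913078 (Lmnb1), chr10:80363948-80380990 (Lmnb2), chr1:183745447-183772532 (Lbr), chr10:90610316-90634327 (Tmpo), chr10:120360469-120416388 (Lemd3), chr5:139676591-139725794 (Sun1), chr15:79554500-79572966 (Sun2), chr10:4795849-5326338 (Syne1) and chr12:76919121-77211913 (Syne2).

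Lmna was the most abundant of the 10 genes in every cell library, and its later minus neonatal change differed between the cell types. It stood at 56.7 (PN30) and 52.0 FPKM (PN67) in later cardiomyocytes, against 199 (PN1) and 194 FPKM (PN1-2) in neonatal cardiomyocytes. The 2 later libraries lay far below both neonatal ones. On the log2(FPKM + 1) scale used for every change here, Lmna fell in cardiomyocytes by 1.84 (log2 change -1.84 ± 0.29 SE, n = 2 per class, adjusted p = 0.00087). In fibroblasts Lmna was 302 (PN28) and 629 FPKM (PN60) in the later class and 320.2 (PN1-2) and 325 FPKM (PN1-3) in the neonatal class. The PN60 library stood far above the others, and the PN28 library just below the neonatal pair, so the later class did not separate from the neonatal one. Its change of 0.43 ± 0.29 did not pass the test (adjusted p = 0.27). Without PN60 the change was -0.076 (adjusted p = 0.60), and without PN28 it was 0.98 (adjusted p = 0.00074), so the value depends on which later age is kept. The difference between the changes of the cell types did pass (-2.27 ± 0.41, adjusted p = 0.0024).

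Lmnb1, a B-type lamin, was lower in the later class of both cell types. It was 4.83 (PN30) and 2.41 FPKM (PN67) in later cardiomyocytes, against 24.9 (PN1) and 25.3 FPKM (PN1-2) in neonatal ones. It was 9.30 (PN28) and 14.9 FPKM (PN60) in later fibroblasts, against 32.8 (PN1-2) and 39.7 FPKM (PN1-3) in neonatal ones. Later and neonatal values did not overlap in either cell type. The log2 changes were -2.55 ± 0.29 in cardiomyocytes (adjusted p = 0.000158) and -1.54 ± 0.29 in fibroblasts (adjusted p = 0.0048). The difference of these changes, -1.01 ± 0.41, did not pass (adjusted p = 0.065), but did without PN28 fibroblasts (-1.36, adjusted p = 0.016) or without PN30 cardiomyocytes (-1.39, adjusted p = 0.020). Without PN67 cardiomyocytes it was -0.61 (adjusted p = 0.20).

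Lmnb2 was low everywhere. It had 3.62 (PN30) and 2.14 FPKM (PN67) in later cardiomyocytes, 4.20 (PN1) and 4.14 FPKM (PN1-2) in neonatal cardiomyocytes, 3.36 (PN28) and 4.59 FPKM (PN60) in later fibroblasts, and 4.12 (PN1-2) and 4.48 FPKM (PN1-3) in neonatal fibroblasts. Only the PN67 cardiomyocyte library stood well apart. The changes of -0.44 ± 0.21 in cardiomyocytes (adjusted p = 0.097) and -0.10 ± 0.21 in fibroblasts (adjusted p = 0.73) did not pass the test. Without PN67 the cardiomyocyte change was -0.14 (adjusted p = 0.59), while it passed without PN30 (-0.70, adjusted p = 0.026) and with FPKM as deposited (-0.72, adjusted p = 0.017).

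The balance of A-type to B-type lamins can be read from FPKM, which are per length. The ratio of Lmna to the sum of Lmnb1 and Lmnb2 was 6.71 (PN30) and 11.4 (PN67) in later cardiomyocytes, against 6.86 (PN1) and 6.59 (PN1-2) in neonatal cardiomyocytes. It was 23.9 (PN28) and 32.3 (PN60) in later fibroblasts, against 8.68 (PN1-2) and 7.35 (PN1-3) in neonatal fibroblasts. The 4 neonatal libraries thus had similar ratios, and the later fibroblasts the highest ones. These ratios are given as a description, with no test.

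**Figure D1:**
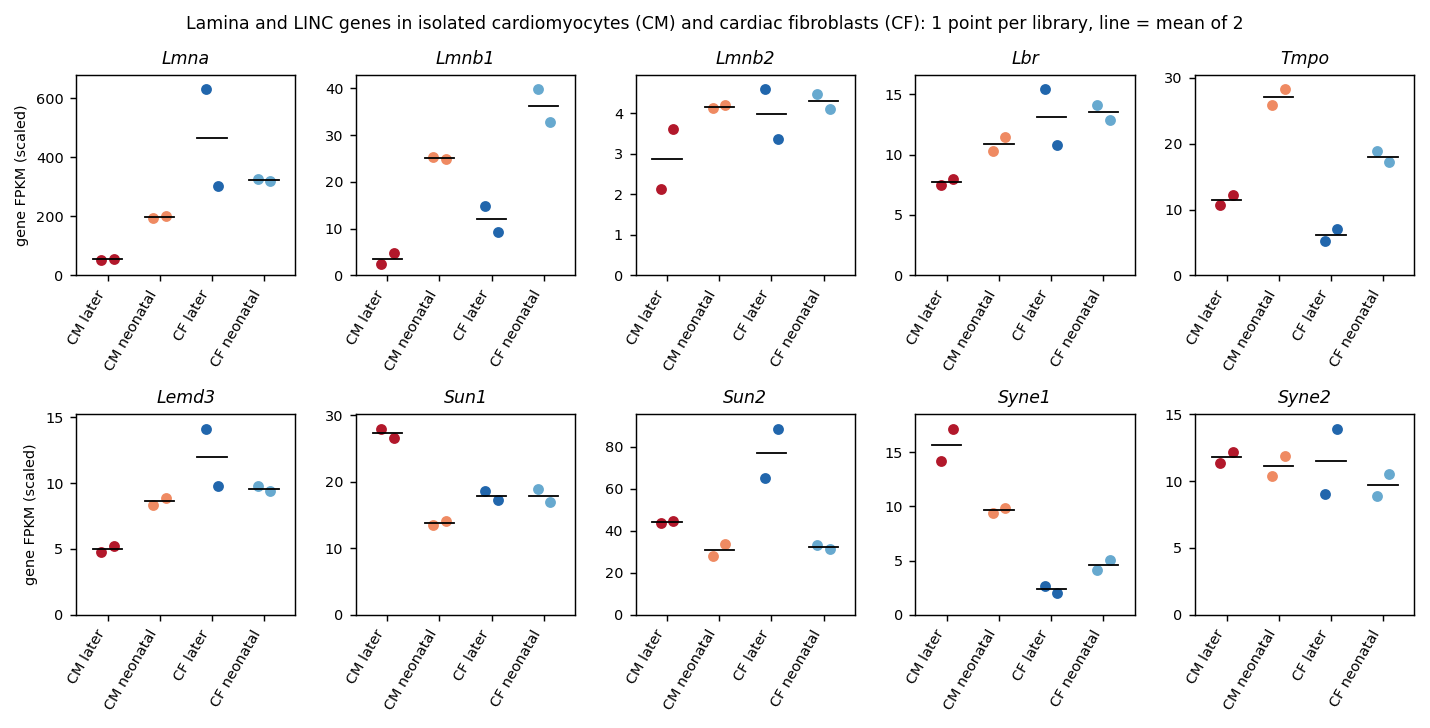
Scaled gene FPKM (vertical axes, starting at 0) of the 10 genes in isolated cardiomyocytes (CM) and cardiac fibroblasts (CF), later class left of the neonatal class. Each point is a library and each line the mean of 2. Lmna is lowest in later cardiomyocytes (52.0 and 56.7 FPKM) and differs between the 2 later fibroblast libraries (302 and 629 FPKM), and Lmnb1 and Tmpo are lower in the later class of both cell types.

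Of the membrane proteins, Tmpo fell in both cell types and Lemd3 in cardiomyocytes. Tmpo was 12.2 (PN30) and 10.8 FPKM (PN67) in later cardiomyocytes, against 28.2 (PN1) and 25.8 FPKM (PN1-2) in neonatal cardiomyocytes, and 7.02 (PN28) and 5.20 FPKM (PN60) in later fibroblasts, against 17.2 (PN1-2) and 18.9 FPKM (PN1-3) in neonatal fibroblasts. Later and neonatal values were far apart in both. Its changes were -1.17 ± 0.16 in cardiomyocytes (adjusted p = 0.000431) and -1.43 ± 0.16 in fibroblasts (adjusted p = 0.000475), and the difference between them did not pass (0.26 ± 0.23, adjusted p = 0.35). The sums leave out 3 further transcripts in the locus that matched no name, and with those added the changes were -1.26 in cardiomyocytes (adjusted p = 0.00012) and -1.60 in fibroblasts (adjusted p = 0.00013). Lemd3 had 5.23 (PN30) and 4.78 FPKM (PN67) in later cardiomyocytes, against 8.88 (PN1) and 8.35 FPKM (PN1-2) in neonatal ones, a change of -0.68 ± 0.18 (adjusted p = 0.0098). This call was lost without the PN67 library (-0.60, adjusted p = 0.066) or the PN1 library (-0.63, adjusted p = 0.066). In fibroblasts Lemd3 was 9.81 (PN28) and 14.1 FPKM (PN60) in the later class and 9.41 (PN1-2) and 9.75 FPKM (PN1-3) in the neonatal class, with PN60 alone well above the rest. That change did not pass (0.27 ± 0.18, adjusted p = 0.25) but did without PN28 (0.54, adjusted p = 0.015), and without PN60 it was 0.048 (adjusted p = 0.78). The cell types differed in their change of Lemd3 (-0.95 ± 0.25, adjusted p = 0.013), a call lost without the PN1 cardiomyocytes (-0.90, adjusted p = 0.055).

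Lbr did not pass the test in either cell type. It had 7.93 (PN30) and 7.49 FPKM (PN67) in later cardiomyocytes, against 11.4 (PN1) and 10.3 FPKM (PN1-2) in neonatal ones, and these values did not overlap. The change of -0.44 ± 0.17 missed the threshold (adjusted p = 0.054), and it passed when either later fibroblast library was left out of the shared fit (-0.46 each, adjusted p = 0.0068 without PN60 and 0.0070 without PN28) or with FPKM as deposited (-0.77, adjusted p = 0.0062). Without any of the other 6 libraries it did not pass (adjusted p up to 0.23). In fibroblasts it was 10.8 (PN28) and 15.4 FPKM (PN60) in the later class and 12.9 (PN1-2) and 14.1 FPKM (PN1-3) in the neonatal class. Those values overlapped, and the change was -0.058 ± 0.17 (adjusted p = 0.82).

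The SUN genes moved the other way. Sun1 was 26.6 (PN30) and 28.0 FPKM (PN67) in later cardiomyocytes, against 14.1 (PN1) and 13.5 FPKM (PN1-2) in neonatal ones, and rose by 0.93 ± 0.12 (adjusted p = 0.000332). In fibroblasts it was 17.3 (PN28) and 18.6 FPKM (PN60) in the later class and 16.9 (PN1-2) and 19.0 FPKM (PN1-3) in the neonatal class, a change of 0.0014 ± 0.12 (adjusted p = 0.99). With FPKM as deposited it was lower by 0.33 in later fibroblasts (adjusted p = 0.048). The difference between the cell types passed (0.93 ± 0.17, adjusted p = 0.0028).

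Sun2 rose in both cell types, and more in fibroblasts. It was 44.5 (PN30) and 43.5 FPKM (PN67) in later cardiomyocytes, against 33.8 (PN1) and 28.0 FPKM (PN1-2) in neonatal ones, a change of 0.50 ± 0.17 (adjusted p = 0.030). It was 88.5 (PN28) and 65.2 FPKM (PN60) in later fibroblasts, against 31.2 (PN1-2) and 33.3 FPKM (PN1-3) in neonatal ones, a change of 1.21 ± 0.17 (adjusted p = 0.0013). The groups did not overlap in either cell type. The cardiomyocyte call was lost with FPKM as deposited (0.15, adjusted p = 0.40), with sums equalised after removal of mitochondrial genes (0.043, adjusted p = 0.81), and without PN67 (0.55, adjusted p = 0.074), PN30 (0.52, adjusted p = 0.088), PN1-2 cardiomyocytes (0.38, adjusted p = 0.17) or PN1-3 fibroblasts (0.49, adjusted p = 0.050). The difference of the changes was -0.71 ± 0.24 (adjusted p = 0.035), and without any of 5 of the 8 libraries in turn its adjusted p lay between 0.068 and 0.14.

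Syne1 moved in opposite directions. The named transcripts of Syne1 summed to 17.2 (PN30) and 14.2 FPKM (PN67) in later cardiomyocytes, against 9.86 (PN1) and 9.40 FPKM (PN1-2) in neonatal ones, and rose by 0.65 ± 0.17 (adjusted p = 0.011). They summed to 1.99 (PN28) and 2.70 FPKM (PN60) in later fibroblasts, against 5.09 (PN1-2) and 4.12 FPKM (PN1-3) in neonatal ones, and fell by 0.75 (log2 change -0.75 ± 0.17, adjusted p = 0.011). Both pairs of groups were apart, and the difference of the changes was 1.39 ± 0.24 (adjusted p = 0.0020). The neonatal fibroblasts also held the cardiomyocyte markers at the shares given above, and the part of this in the fibroblast value was not tested. Between 93.8% and 99.6% of the Syne1 sum was 1 transcript of 4819 bases. Transcripts of 28204 and 10934 bases in the same locus matched no name and were not in the sum. The longest had 2.13 (PN30) and 3.07 FPKM (PN67) in later cardiomyocytes, 1.54 (PN1) and 1.74 FPKM (PN1-2) in neonatal cardiomyocytes, 2.15 (PN28) and 3.32 FPKM (PN60) in later fibroblasts and 2.89 (PN1-2) and 2.27 FPKM (PN1-3) in neonatal fibroblasts. The 10934-base transcript had 5.61 (PN30) and 5.69 FPKM (PN67) in later cardiomyocytes and 6.44 (PN1) and 5.26 FPKM (PN1-2) in neonatal ones. It had 4.88 (PN28) and 6.96 FPKM (PN60) in later fibroblasts and 7.07 (PN1-2) and 6.42 FPKM (PN1-3) in neonatal ones. In each fibroblast library it exceeded the named sum. With the unnamed transcripts of the locus added, a sum chosen after seeing the data, the cardiomyocyte change was 0.44 (adjusted p = 0.062) and the fibroblast change -0.33 (adjusted p = 0.18), while the difference of the changes still passed (0.77, adjusted p = 0.033). The cardiomyocyte call was also lost with FPKM as deposited (0.31, adjusted p = 0.16), with mitochondrial genes removed and sums equalised (0.21, adjusted p = 0.33), and without PN30 (0.55, adjusted p = 0.067) or PN1-2 (0.63, adjusted p = 0.061), and the fibroblast call without PN1-2 fibroblasts (-0.63, adjusted p = 0.083) and in a fit of the 4 fibroblast libraries alone (-0.71, adjusted p = 0.058).

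Syne2, the other large nesprin gene, did not pass the test in either cell type. It had 12.2 (PN30) and 11.4 FPKM (PN67) in later cardiomyocytes, 11.9 (PN1) and 10.4 FPKM (PN1-2) in neonatal cardiomyocytes, 13.9 (PN28) and 9.05 FPKM (PN60) in later fibroblasts, and 10.6 (PN1-2) and 8.92 FPKM (PN1-3) in neonatal fibroblasts. The values overlapped in both cell types, and the changes were 0.077 ± 0.20 in cardiomyocytes (adjusted p = 0.75) and 0.19 ± 0.20 in fibroblasts (adjusted p = 0.48). Without PN60 the fibroblast change was 0.50 (adjusted p = 0.031), and without PN28 it was -0.074.

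Counted together, 3 of the 10 genes rose in later cardiomyocytes (Sun1, Sun2, Syne1), 4 fell (Lmna, Lmnb1, Tmpo, Lemd3) and 3 did not pass. In that comparison 66.9% of the 12122 genes tested were called, 37.1% higher and 29.8% lower, so 7 of 10 is close to the background. In fibroblasts 1 rose (Sun2), 3 fell (Lmnb1, Tmpo, Syne1) and 6 did not pass, where 40.3% of 12123 genes were called, 19.7% higher and 20.7% lower, so 4 of 10 is again at the background. For the difference of the changes, 5 of 10 were called, 2 higher in cardiomyocytes (Sun1, Syne1) and 3 lower (Lmna, Lemd3, Sun2), against 58.6% of 12100 genes (32.2% higher and 26.3% lower). The median log2 change of the 10 genes was -0.44 in cardiomyocytes, beside 0.10 over all genes tested, and -0.028 in fibroblasts, beside -0.017. With FPKM as deposited, the median of all genes shifted by -0.29 in cardiomyocytes and by -0.28 in fibroblasts, and the split of all calls moved to 3369 higher and 4891 lower in cardiomyocytes (4501 and 3613 under the median scaling) and to 1479 higher and 4658 lower in fibroblasts (2383 and 2506). With mitochondrial genes removed and sums equalised these splits were 3009 higher and 5251 lower in cardiomyocytes, and 1487 higher and 4708 lower in fibroblasts. All changes above are therefore relative to the median gene.

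**Figure D2:**
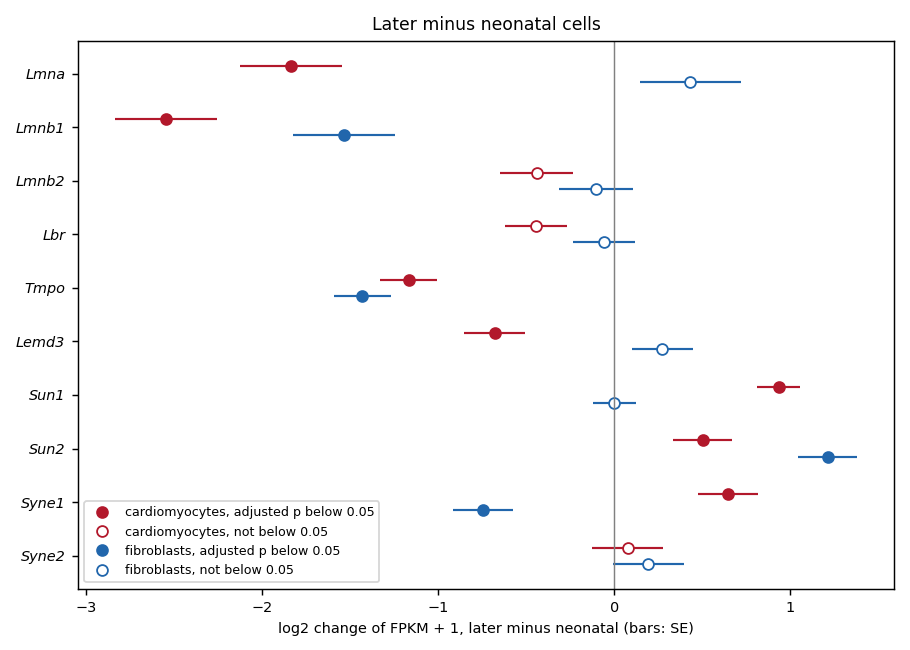
Log2 change of FPKM + 1, later minus neonatal (horizontal axis), with its SE as a bar, for each gene in cardiomyocytes (red) and fibroblasts (blue). Filled points had an adjusted p below 0.05. Syne1 lies on opposite sides of 0 in the 2 cell types (0.65 and -0.75), and Lmna is far lower in cardiomyocytes (-1.84) while its fibroblast change of 0.43 did not pass.

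Cardiomyocytes and fibroblasts of the same stage were compared next, with the cell values already given. In the later class the cell types differed in most of the 10 genes, as they did in most of all genes tested. Cardiomyocytes were lower in Lmna (-2.98 ± 0.29, adjusted p = 3.7e-05), Lmnb1 (-1.52 ± 0.29, adjusted p = 0.0016), Lemd3 (-1.09 ± 0.18, adjusted p = 0.00065), Sun2 (-0.77 ± 0.17, adjusted p = 0.0034) and Lbr (-0.68 ± 0.17, adjusted p = 0.0080). They were higher in Syne1 (2.32 ± 0.17, adjusted p = 8.0e-06), Tmpo (0.82 ± 0.16, adjusted p = 0.0020) and Sun1 (0.58 ± 0.12, adjusted p = 0.0029). Thus 3 were higher and 5 lower of 10, in a comparison in which 77.7% of 12119 genes were called, 38.4% higher and 39.3% lower. The number called is therefore close to the background. Lmnb2 (-0.38 ± 0.21, adjusted p = 0.13) and Syne2 (0.060 ± 0.20, adjusted p = 0.79) did not pass, though Lmnb2 did without PN28 fibroblasts (-0.58, adjusted p = 0.044) or PN30 cardiomyocytes (-0.64, adjusted p = 0.028). Without PN67 cardiomyocytes the Lmnb2 difference was -0.085 (adjusted p = 0.73). With the unnamed transcripts added, Syne1 was higher in cardiomyocytes by 1.11 (adjusted p = 0.00071). The macrophage markers, of which all 8 were above 1 FPKM in later fibroblasts and 7 in later cardiomyocytes, summed to 196 (PN30) and 209 FPKM (PN67) in later cardiomyocytes, beside the 970 and 763 FPKM in later fibroblasts.

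In the neonatal class fewer genes passed. Cardiomyocytes were higher in Syne1 (0.93 ± 0.17, adjusted p = 0.0042) and Tmpo (0.56 ± 0.16, adjusted p = 0.027), and 8 of 10 genes did not pass, where 40.5% of 12115 genes were called, 21.4% higher and 19.0% lower. Of all calls, 2597 genes were higher and 2304 lower in cardiomyocytes, against 2255 and 3296 with mitochondrial genes removed and sums equalised. The Syne1 call was lost with the unnamed transcripts added (0.34, adjusted p = 0.17). The Tmpo call was lost when any of the 4 neonatal libraries was left out (0.49 to 0.62, adjusted p from 0.079 to 0.16). The endothelial markers summed to 1434 (PN1) and 1228 FPKM (PN1-2) in neonatal cardiomyocytes, beside 668 (PN1-2) and 559 FPKM (PN1-3) in neonatal fibroblasts. The erythroid markers summed to 20438 and 15376 FPKM in those cardiomyocytes, beside 71.7 and 163 FPKM in those fibroblasts. The part of these other cells in the differences was not tested. Lmna was lower in neonatal cardiomyocytes in every library, but its difference of -0.71 ± 0.29 did not pass in the shared fit (adjusted p = 0.087). In a fit of the 4 neonatal libraries alone, Lmna passed (-0.70, adjusted p = 0.00027), and so did Lmnb1 (-0.50, adjusted p = 0.013) and Sun1 (-0.34, adjusted p = 0.040). That fit rests on the spread within the neonatal pairs, which may be technical, and why it differs from the shared fit was not tested.

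Isoform use was read as the share of each transcript in the summed FPKM of the named transcripts of its gene. In cells 21 isoforms of 5 members (Lmna, Tmpo, Sun1, Sun2, Syne2) could be tested, and the other 5 genes did not pass the filters on gene level and on shares between 5% and 95%. Calls needed both an adjusted p below 0.05 and a shift of 10 percentage points or more. In cardiomyocytes 6 shares were higher and 4 lower in the later class, 10 of 21. In that comparison 17.7% of 12971 isoforms were called, 9.67% higher and 7.99% lower. The 10 calls of members came from Tmpo, Sun2, Sun1 and Syne2. A fall in the share of an isoform forces rises in others of its gene, so isoforms of a gene are not separate units. In fibroblasts none of the 21 was called, where 4.19% of 12945 were, 2.14% higher and 2.05% lower. Whether the isoform changes differ between the cell types was not tested. Cufflinks shares fragments among overlapping transcripts by an estimate, so shares of isoforms that differ little are uncertain.

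Lamin C exceeded lamin A in every library. Lamin A (Lmna-201) made 26.6% (PN30) and 23.6% (PN67) of Lmna in later cardiomyocytes, against 31.6% (PN1) and 33.4% (PN1-2) in neonatal cardiomyocytes, and 33.7% (PN28) and 34.6% (PN60) in later fibroblasts, against 40.3% (PN1-2) and 38.3% (PN1-3) in neonatal fibroblasts. The ratio of lamin C to lamin A FPKM was 2.30 (PN30) and 2.79 (PN67) in later cardiomyocytes, 1.84 (PN1) and 1.67 (PN1-2) in neonatal cardiomyocytes, 1.66 (PN28) and 1.62 (PN60) in later fibroblasts, and 1.16 (PN1-2) and 1.37 (PN1-3) in neonatal fibroblasts. Lamin A was thus a smaller part of Lmna in the later class of both cell types, without overlap. The change of -7.43 percentage points in cardiomyocytes had an adjusted p of 0.034 but was under 10 points and so was not called, and the change of -5.13 points in fibroblasts did not pass (adjusted p = 0.24).

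In Sun2 the shares of 3 of the 4 transcripts tested (Sun2-201, Sun2-202 and Sun2-203) were called in later cardiomyocytes. The change of the other, the retained-intron transcript Sun2-208, had an adjusted p of 0.0088. At -3.14 percentage points it was under 10 points and so was not called. Sun2-202, the transcript without the 96-base exon printed above, made 3.70% (PN30) and 3.04% (PN67) of Sun2 in later cardiomyocytes, against 20.5% (PN1) and 21.7% (PN1-2) in neonatal ones, and its share fell by 17.8 points (adjusted p = 0.000294). It made 34.2% (PN28) and 45.3% (PN60) in later fibroblasts, against 31.2% (PN1-2) and 27.0% (PN1-3) in neonatal ones, a change that did not pass (10.6 points, adjusted p = 0.14). The share in later cardiomyocytes was 36.4 points below that in later fibroblasts (adjusted p = 1.3e-05). Over the 3 transcripts as a description, the exon was in 96.2% (PN30) and 96.9% (PN67) of the FPKM in later cardiomyocytes, 77.4% (PN1) and 76.0% (PN1-2) in neonatal cardiomyocytes, 62.5% (PN28) and 48.4% (PN60) in later fibroblasts and 63.1% (PN1-2) and 69.0% (PN1-3) in neonatal fibroblasts. The exon-containing Sun2-201 (13.1 points, adjusted p = 0.049) and Sun2-203 (10.7 points, adjusted p = 0.028) rose in later cardiomyocytes. The Sun2-201 call was lost without any of 6 of the 8 libraries in turn (adjusted p 0.050 to 0.19), and the Sun2-203 call without PN67 (adjusted p = 0.15), PN1 (adjusted p = 0.072) or PN1-2 (adjusted p = 0.14) cardiomyocytes.

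Sun1 shifted towards the transcript without the 3 exons printed above. Sun1-205 made 39.8% (PN30) and 32.1% (PN67) of Sun1 in later cardiomyocytes, against 24.4% (PN1) and 21.6% (PN1-2) in neonatal ones, a rise of 13.0 points (adjusted p = 0.014). Sun1-201, which holds all 3, fell by 15.4 points (adjusted p = 0.0075), to 14.7% (PN30) and 21.1% (PN67) in later cardiomyocytes, against 30.2% (PN1) and 36.4% (PN1-2) in neonatal ones. Over the 4 long transcripts, the 192-base exon was in 30.4% (PN30) and 40.0% (PN67) of the FPKM in later cardiomyocytes, 53.6% (PN1) and 56.1% (PN1-2) in neonatal cardiomyocytes, 72.3% (PN28) and 72.1% (PN60) in later fibroblasts, and 67.4% (PN1-2) and 63.3% (PN1-3) in neonatal fibroblasts. Later cardiomyocytes used it least and later fibroblasts most, with no overlap between any 2 classes. Against later fibroblasts, later cardiomyocytes had more Sun1-205 (24.9 points, adjusted p = 0.000136) and less Sun1-201 (-24.6 points, adjusted p = 0.00068). Without PN30 or PN1-2 cardiomyocytes the later minus neonatal call of Sun1-205 was lost, and without PN1-2 cardiomyocytes that of Sun1-201.

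In Tmpo the shares of 2 membrane-bound forms, Tmpo-203 and Tmpo-204, rose in later cardiomyocytes, within a gene sum that fell. Whether the FPKM of these 2 forms changed was not tested. All Tmpo shares are of its named transcripts, and the 3 unnamed transcripts of the locus lie outside them. In PN1-2 cardiomyocytes those had 4.12, 6.59 and 10.7 FPKM, beside a named sum of 25.8 FPKM. In PN67 cardiomyocytes they had 0.782, 3.10 and 3.77 FPKM, beside a named sum of 10.8 FPKM. Tmpo-204, which lacks the 120-base and 96-base exons, made 27.2% (PN30) and 27.5% (PN67) of Tmpo in later cardiomyocytes, against 10.2% (PN1) and 7.41% (PN1-2) in neonatal ones, a rise of 18.6 points (adjusted p = 0.000349). Tmpo-203, which lacks the 120-base exon only, rose by 12.5 points (adjusted p = 0.0049). Tmpo-205, which also lacks both exons, made 3.95% (PN30) and 3.41% (PN67) in later cardiomyocytes, against 4.51% (PN1) and 4.61% (PN1-2) in neonatal ones, and was not called (-0.88 points, adjusted p = 0.098). Tmpo-202, the LAP2 beta transcript with both exons, fell by 15.03 points (adjusted p = 0.012) to 7.33% (PN30) and 7.12% (PN67) in later cardiomyocytes, against 23.2% (PN1) and 21.3% (PN1-2) in neonatal ones. That call was lost without PN30 (adjusted p = 0.052) or PN1 (adjusted p = 0.069). Tmpo-201, LAP2 alpha, which has no membrane span and binds A-type lamins in the nucleoplasm, fell by 15.2 points (adjusted p = 0.0057), to 36.9% (PN30) and 38.0% (PN67) in later cardiomyocytes, against 49.7% (PN1) and 55.7% (PN1-2) in neonatal ones. The 120-base exon was in 11.6% (PN30) and 11.5% (PN67) of the membrane-bound forms in later cardiomyocytes, against 46.1% (PN1) and 48.2% (PN1-2) in neonatal cardiomyocytes. It was in 33.3% (PN28) and 31.1% (PN60) in later fibroblasts, against 36.7% (PN1-2) and 20.0% (PN1-3) in neonatal fibroblasts. The 111-base exon that Tmpo-205 lacks was in 82.2% (PN28) to 86.9% (PN1-2) of these forms in fibroblasts. In cardiomyocytes it was in 89.6% (PN1-2) to 94.5% (PN67). Between the neonatal cell types, 2 isoforms of the 21 were called (beside 7.18% of 12944 isoforms, 4.23% higher and 2.96% lower), Tmpo-201 higher in cardiomyocytes (11.3 points, adjusted p = 0.038) and Tmpo-203 lower (-10.3 points, adjusted p = 0.030). Leaving out single libraries moved the adjusted p of Tmpo-201 to as much as 0.24 and that of Tmpo-203 to as much as 0.16. Several deposited Tmpo transcripts (Tmpo-203, Tmpo-204 and Tmpo-205 among them) differ in length from the release used for names, at ends not shown here. Exon shares were summed after the isoform values had been seen and are given with no test.

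**Figure D3:**
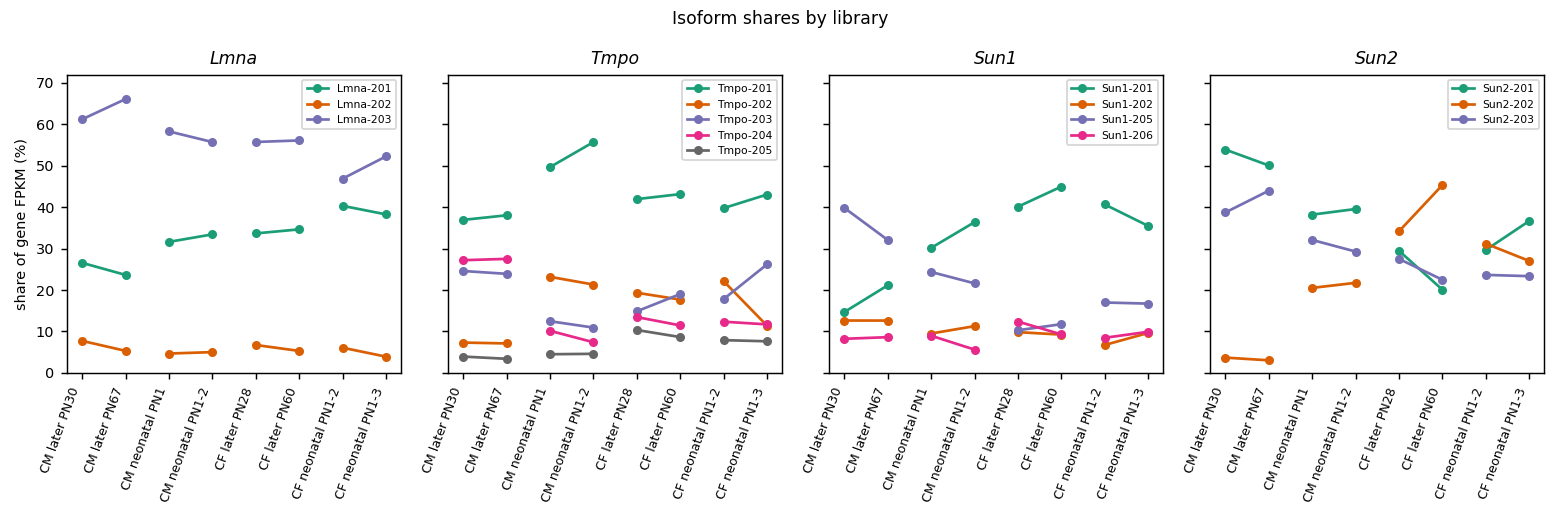
Share of each transcript in the FPKM of the named transcripts of its gene (vertical axis, percent) in each cell library of Lmna, Tmpo, Sun1 and Sun2, with a line joining the 2 libraries of a class. Sun2-202 is nearly gone in later cardiomyocytes (3.70% and 3.04%), and Tmpo-204 and Sun1-205 are highest there.

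Syne2-206, a transcript annotated as subject to nonsense-mediated decay, made 38.4% (PN30) and 30.2% (PN67) of Syne2 in later cardiomyocytes, against 13.9% (PN1) and 12.2% (PN1-2) in neonatal ones, a rise of 21.3 points (adjusted p = 0.0022). It made 10.3% (PN28) and 15.2% (PN60) in later fibroblasts, so that the later cell types differed by 21.5 points (adjusted p = 0.0012). The giant Syne2-210, of 21704 bases, made 16.5% (PN30) and 22.0% (PN67) in later cardiomyocytes, against 29.2% (PN28) and 29.6% (PN60) in later fibroblasts (-10.2 points, adjusted p = 0.019), a call lost without PN30 (adjusted p = 0.12), PN28 (adjusted p = 0.051) or PN60 (adjusted p = 0.069). The make-up of Syne2 thus moved in cardiomyocytes, while the change of its total did not pass. Between the later cell types, 9 of the 21 isoforms were called, 5 higher and 4 lower in cardiomyocytes, where 27.7% of 12969 isoforms were, 15.3% higher and 12.4% lower.

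In whole ventricles, where 1 library per stage allowed only a trend over the order of the stages, Lmnb1 had the steepest slope of the 10 genes. Lmnb1 was 75.0 FPKM at E17, 42.5 at PN1, 14.7 at PN10, 3.84 at PN28 and 2.45 at PN90, lower at each stage than at the one before, and its slope was -1.21 ± 0.09 per stage on the log2 scale (adjusted p = 0.0042). Tmpo was 59.5 FPKM at E17, 46.4 at PN1, 25.9 at PN10, 14.0 at PN28 and 16.1 at PN90, with a slope of -0.53 ± 0.08 (adjusted p = 0.0068). Lmnb2 was 5.39 FPKM at E17, 3.49 at PN1, 2.25 at PN10, 1.60 at PN28 and 1.52 at PN90 (-0.35 ± 0.06, adjusted p = 0.0082). These 3 genes were highest at E17 and lowest at PN28 or PN90. Lbr was 15.2 FPKM at E17, 12.4 at PN1, 11.3 at PN10, 9.47 at PN28 and 8.95 at PN90 (-0.18 ± 0.04, adjusted p = 0.024). In bulk tissue, fewer cells of a type and less RNA per cell cannot be told apart.

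Sun2 rose over the stages and Lmna did not pass the test. Sun2 was 10.5 FPKM at E17, 13.6 at PN1, 14.7 at PN10, 22.3 at PN28 and 25.5 at PN90 (0.31 ± 0.05 per stage, adjusted p = 0.0069). Lmna was 32.2 FPKM at E17, 37.0 at PN1, 36.5 at PN10, 44.0 at PN28 and 45.7 at PN90, with a slope of 0.12 ± 0.04 (adjusted p = 0.077) that came to -0.0020 with FPKM as deposited. The ventricle therefore gave no fall of Lmna, while isolated later cardiomyocytes had 52.0 to 56.7 FPKM against 194 to 199 FPKM in neonatal ones, and the ventricle values themselves lay below all cell values, from tables scaled separately. Library kit and isolation differ between these sets, and their part was not tested. The ratio of Lmna to Lmnb1 and Lmnb2 together was 0.401 at E17, 0.804 at PN1, 2.16 at PN10, 8.09 at PN28 and 11.5 at PN90. Sun1 (14.9 FPKM at E17, 15.8 at PN1, 14.1 at PN10, 22.4 at PN28 and 20.3 at PN90), Syne1 (18.7 to 24.8 FPKM), Syne2 (11.7 to 18.8 FPKM) and Lemd3 (4.29 to 5.11 FPKM) had no slope that passed (adjusted p 0.14, 0.99, 0.36 and 0.76).

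Of the 10 genes 1 rose and 4 fell over the ventricle stages, where 34.9% of 11661 genes were called, 20.3% higher and 14.5% lower. With FPKM as deposited, the median slope of all genes shifted by -0.11 and the split of all calls moved to 1273 higher and 3443 lower, against 2373 and 1696 under the median scaling and 1267 and 2888 with mitochondrial genes removed and sums equalised. Only the Lmnb1 call remained without the E17 library, where Lmnb2 (-0.28, adjusted p = 0.079), Lbr (-0.15, adjusted p = 0.18), Tmpo (-0.53, adjusted p = 0.054) and Sun2 (0.31, adjusted p = 0.059) kept their direction. The Lbr call was also lost without PN1 (-0.18, adjusted p = 0.062), PN28 (-0.17, adjusted p = 0.087) or PN90 (-0.20, adjusted p = 0.083).

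Isoform shares in ventricles are read with more caution. None of the 19 member isoforms tested had a slope that was called, where 1.07% of 11486 isoforms were, 0.601% with a positive and 0.470% with a negative slope. A retained-intron transcript of 659 bases, Lmnb1-202, made 57.6% of the Lmnb1 FPKM at E17, 56.3% at PN1, 53.6% at PN10, 49.9% at PN28 and 45.4% at PN90, and at most 6.71% in any cell library. The coding transcript Lmnb1-201 alone had 31.8 FPKM at E17, 18.6 at PN1, 6.81 at PN10, 1.93 at PN28 and 1.34 at PN90, the same order as the gene. With it in place of the gene sum, the ratio of Lmna to B-type lamins was 0.867 at E17, 1.68 at PN1, 4.03 at PN10, 12.5 at PN28 and 16.0 at PN90. Lmna-202, a shorter coding transcript, made 46.0% to 53.4% of Lmna in ventricles and 3.93% to 7.73% in cells. The cell and ventricle libraries differ in kit here too. Tmpo-202 was estimated at 24.5% of the named Tmpo transcripts at PN10 and at close to 0 at PN28 and PN90, while Tmpo-204 was 17.4% at PN10, 35.0% at PN28 and 42.3% at PN90. The 3 unnamed transcripts of that locus, outside these shares, had 27.4, 15.9 and 21.6 FPKM at E17. The named Tmpo sum at that stage was 59.5 FPKM. The 96-base exon of Sun2 was in 57.3% of the FPKM at E17, 62.2% at PN1, 66.97% at PN10, 71.4% at PN28 and 57.7% at PN90, below later cardiomyocytes at every stage.

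**Figure D4:**
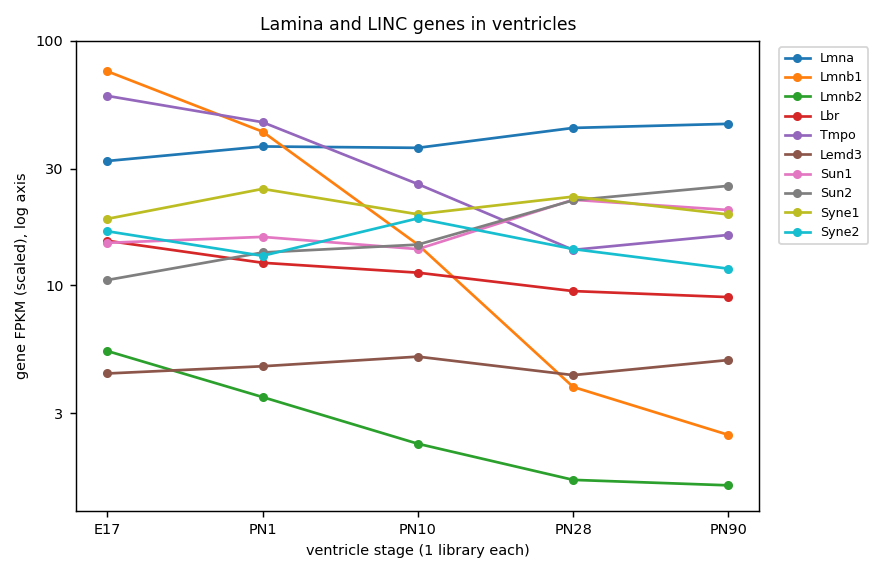
Scaled gene FPKM of the 10 genes in ventricles (vertical axis, log scale) at the 5 stages from E17 to PN90, 1 library each. Lmnb1 runs from 75.0 to 2.45 FPKM and Tmpo from 59.5 to 16.1 FPKM, Sun2 rises to 25.5 FPKM, and Lmna lies between 32.2 and 45.7 FPKM.

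Other genes of the nuclear envelope were described from lists that do not hold the 10 members, by how many passed in each direction. Over all genes tested, 37.1% were called higher and 29.8% lower in later cardiomyocytes (median change 0.10), 19.7% and 20.7% in later fibroblasts (median -0.017), and 20.3% and 14.5% over ventricle stages. Of 18 partners at the inner membrane and lamina, 5 rose and 2 fell in later cardiomyocytes (median 0.26), smaller shares than over all genes, and 3 rose and 6 fell in later fibroblasts (median -0.0080). The largest changes in cardiomyocytes were rises of Plpp7 (NET39, a muscle envelope protein, 2.87 ± 0.15, adjusted p = 7.8e-06), Mlip (muscular lamin A interacting protein, 1.93 ± 0.15, adjusted p = 2.9e-05) and Tmem201 (SAMP1, 1.62 ± 0.14, adjusted p = 4.6e-05) and a fall of Tmem43 (LUMA, mutated in an arrhythmogenic cardiomyopathy, -1.04 ± 0.14, adjusted p = 0.00039). Mlip had 44.6 (PN30) and 48.8 FPKM (PN67) in later cardiomyocytes, against 10.2 (PN1) and 12.8 FPKM (PN1-2) in neonatal ones, and stayed under 1 FPKM in all 4 fibroblast libraries. Plpp7 had 29.7 (PN30) and 25.3 FPKM (PN67) in later cardiomyocytes, against 2.80 (PN1) and 2.99 FPKM (PN1-2) in neonatal ones. Both rose while Lmna, whose product binds the Mlip protein, fell. In fibroblasts the changes of Nrm (nurim, -1.74 ± 0.16, adjusted p = 0.00022), Nemp1 (-1.12 ± 0.14, adjusted p = 0.00079) and Dhcr7 (a sterol reductase, -0.98 ± 0.17, adjusted p = 0.0039) were downward and that of Tor1aip2 (LULL1, which activates torsins, 0.91 ± 0.29, adjusted p = 0.038) upward. In ventricles 3 of 17 rose, among them Plpp7 (0.48 ± 0.06 per stage, adjusted p = 0.0047) and Mlip (0.23 ± 0.06, adjusted p = 0.032), and 3 fell, among them Nrm (-0.42 ± 0.06, adjusted p = 0.0051).

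Lamin processing needs a farnesyltransferase (Fnta, Fntb), the proteases Zmpste24 and Rce1 and the methyltransferase Icmt, and Narf encodes a protein that binds prelamin A. Of these 6 genes, 4 rose and none fell in later cardiomyocytes (median 0.64, beside 0.10 and calls of 37.1% higher and 29.8% lower over all genes), and none rose and 3 fell in later fibroblasts (median -0.24, beside -0.017 and calls of 19.7% higher and 20.7% lower). Narf had 43.7 (PN30) and 46.1 FPKM (PN67) in later cardiomyocytes, against 8.30 (PN1) and 10.2 FPKM (PN1-2) in neonatal ones, and rose by 2.17 ± 0.16 (adjusted p = 2.4e-05). It had 1.45 (PN28) and 2.08 FPKM (PN60) in later fibroblasts, against 8.20 (PN1-2) and 7.99 FPKM (PN1-3) in neonatal ones (-1.73 ± 0.16, adjusted p = 0.00021), so the 2 cell types moved apart (3.90 ± 0.23, adjusted p = 1.7e-05). Fnta rose in later cardiomyocytes by 1.34 ± 0.12 (adjusted p = 4.8e-05), Fntb by 0.70 ± 0.13 (adjusted p = 0.0019) and Zmpste24 by 0.57 ± 0.17 (adjusted p = 0.019). In ventricles Fnta, Narf and Zmpste24 rose (0.21, 0.19 and 0.17 per stage, adjusted p 0.029, 0.037 and 0.036).

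Among 14 other SUN and KASH genes and their cytoplasmic partners, 11 were tested, and 4 rose and 2 fell in later cardiomyocytes (median 0.42, beside 0.10 and calls of 37.1% higher and 29.8% lower over all genes) and 3 rose and 3 fell in later fibroblasts (median -0.24, beside -0.017 and calls of 19.7% higher and 20.7% lower). Sun3 (1.19 ± 0.14, adjusted p = 0.00022), Klc2 (a kinesin light chain, 1.13 ± 0.13, adjusted p = 0.00017) and Klc4 (0.85 ± 0.17, adjusted p = 0.0032) rose in cardiomyocytes, and Fhod1, a formin that binds nesprin-2, fell (-1.003 ± 0.16, adjusted p = 0.00087). In fibroblasts Syne3, which encodes nesprin-3, rose to 7.25 (PN28) and 7.48 FPKM (PN60) in the later class, against 3.19 (PN1-2) and 2.53 FPKM (PN1-3) in the neonatal class (1.12 ± 0.15, adjusted p = 0.0010). Syne3 was lower in later cardiomyocytes than in later fibroblasts by 1.70 (log2 difference -1.70 ± 0.15, adjusted p = 2.0e-05), and its change differed between the cell types (-1.53 ± 0.21, adjusted p = 0.00066). Plec, whose product plectin binds nesprin-3, rose in ventricles (0.30 ± 0.07 per stage, adjusted p = 0.017).

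The myonuclear envelope carries centrosomal proteins in cardiomyocytes, anchored through a nesprin-1 form and AKAP6. Of these 6 genes, 4 rose and 1 fell in later cardiomyocytes (median 0.59, beside 0.10 and calls of 37.1% higher and 29.8% lower over all genes), and none rose and 1 fell in later fibroblasts (median -0.24, beside -0.017 and calls of 19.7% higher and 20.7% lower). Akap6 rose by 1.43 ± 0.14 (adjusted p = 6.8e-05), to 29.5 (PN30) and 27.4 FPKM (PN67) in later cardiomyocytes, against 9.16 (PN1) and 10.7 FPKM (PN1-2) in neonatal ones, with at most 1.01 FPKM in fibroblasts. Pcnt (0.76 ± 0.18, adjusted p = 0.0065) and Akap9 (0.69 ± 0.14, adjusted p = 0.0032) rose, and Cdk5rap2 fell (-1.19 ± 0.13, adjusted p = 0.00013). In ventricles Akap6 (0.39 ± 0.08 per stage, adjusted p = 0.013) and Pcnt (0.22 ± 0.06, adjusted p = 0.031) rose and Cdk5rap2 fell (-0.33 ± 0.04, adjusted p = 0.0050).

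Of 30 nuclear pore genes 26 were tested in cells. In later cardiomyocytes 2 rose and 11 fell (median -0.24, beside 0.10 and calls of 37.1% higher and 29.8% lower over all genes), among them Nup50 (-1.61 ± 0.20, adjusted p = 0.00024), Pom121 (-1.41 ± 0.15, adjusted p = 0.00011) and Nup153 (-1.35 ± 0.11, adjusted p = 4.1e-05), which encodes a basket protein that binds lamins, while Nupl2 rose (1.43 ± 0.16, adjusted p = 0.00016). In later fibroblasts 4 rose and 3 fell (median 0.082, beside -0.017 and calls of 19.7% higher and 20.7% lower), with Aaas falling (-1.10 ± 0.13, adjusted p = 0.00053) and Nup98 rising (0.99 ± 0.21, adjusted p = 0.0082). In ventricles none rose and 9 of 25 fell, where 14.5% of all genes fell, among them Nup210 (-0.46 ± 0.06 per stage, adjusted p = 0.0045). Of 17 proliferation markers 16 were tested in cells, and 16 fell in later cardiomyocytes and 15 in later fibroblasts, with none rising (medians -2.41 and -2.46). Over the ventricle stages all 17 fell (median -1.08 per stage), as Lmnb1 (-1.21 per stage) did.

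The genes most like each member over the 8 cell libraries, by Pearson's r of log2(FPKM + 1) among 8220 other genes with a mean of at least 5 FPKM, are given as a description, since libraries of a class share age and isolation. They were Suco (r = 0.997) and Rlf (0.996) for Lmna, Hirip3 (0.995) and Mex3b (0.994) for Lmnb1, and Elovl5 (0.930) and Gm14150 (0.922) for Lmnb2. They were Clip2 (0.994) and Tram2 (0.988) for Lbr, Trim24 (0.994) and Clec14a (0.989) for Tmpo, and Ppp2r2d (0.992) and Dcun1d3 (0.992) for Lemd3. For the LINC genes they were Slc35f5 (0.991) and Wwp1 (0.986) with Sun1, Sp110 (0.990) and Abcc1 (0.989) with Sun2, Hes6 (0.996) and Etfb (0.995) with Syne1, and Ccdc22 (0.923) and Taldo1 (0.919) with Syne2. Among the members, Lmna and Lemd3 were the most alike pair (r = 0.990), and Tmpo and Sun2 the most opposed (r = -0.890).

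Promoter windows of RefSeq (300 bases around a gene's start, GRCm38.p6) of 9 members, 15 windows in all, were searched on both strands for 3 short motifs. Windows on chromosome 18, where Lmnb1 lies, were left out for the members but not for the shares over all windows. The counts below therefore do not cover Lmnb1. The letters CCAAT were in 7 windows of 6 genes, where 37.4% of all 32851 windows hold them. The letters TTTGAA were in 3 windows of 3 genes, where 17.9% of all windows hold them. The letters TTCCCGC were in 2 windows, of Tmpo and Lemd3, where 4.60% of all windows hold them. These matches describe letters only.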

How the data were processed

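RNA-seq of 13 libraries was analysed at transcript level. Per the submitters' processing notes, reads were aligned with TopHat2 2.0.5 and quantified with Cufflinks 2.1.1 on mm9. The annotation release and the use of strand are not given in the sources used here, so overlapping genes (Gm16575 with Sun2, Gm16166 with Lemd3) may share fragments. The authors deposited, per the file headers, FPKM with 95% bounds and coverage for each transcript, and no counts. Coverage was used only as a guide to depth.

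Transcript IDs were matched to GENCODE M21 names (82379 of 94696, 87.0%). Transcripts under 200 bases, or with the status LOWDATA in any library of the set fitted, were dropped, and FPKM were summed per gene. A gene with a transcript whose estimate had failed (HIDATA or FAIL) in a library had no value in that library. Gene values were scaled by median ratios, separately for the 8 cell libraries (factors 0.869 to 1.16) and the 5 ventricle libraries (0.862 to 1.20). Genes with a mean of at least 1 FPKM (12151 in cells, 11665 in ventricles) entered limma (version 3.58.1, under R 4.3.3) as log2(FPKM + 1), a scale that understates changes of low genes. The 4 cell classes shared 1 fit, and p-values were adjusted by Benjamini and Hochberg over all genes of a comparison. The ventricle fit is a slope over the order of stages. Isoforms were fitted as log2 of isoform over the rest of its gene with 0.5 FPKM added to each side, for genes with a mean of 5 and a minimum of 1 FPKM and shares between 5% and 95%. The genes named in each list are those 4 with the largest change among those called. Scripts were tested on simulated data. The 10 genes, the lists and the rules were chosen with earlier results of these data known. Alternatives covered scaling, the added constant, filters, the samples fitted and each library left out.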

Additional observations from a re-analysis of the deposited data

Results flagged for a closer look

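For 5 of the 10 genes, the later minus neonatal change differed between cardiomyocytes and fibroblasts in the limma interaction test (cardiomyocyte change minus fibroblast change, log2 scale, 8 libraries). The difference was -2.27 for Lmna, with a change of -1.84 in cardiomyocytes and 0.43 in fibroblasts. It was -0.95 for Lemd3, with -0.68 in cardiomyocytes and 0.27 in fibroblasts. It was 0.93 for Sun1, with 0.93 in cardiomyocytes and 0.0014 in fibroblasts. It was -0.71 for Sun2, with 0.50 in cardiomyocytes and 1.21 in fibroblasts. It was 1.39 for Syne1, with 0.65 in cardiomyocytes and -0.75 in fibroblasts. Over all genes tested, 58.6% had such a difference. Stage goes with isolation method in cardiomyocytes and not in fibroblasts, so these cannot be told apart.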

How the results depend on the processing

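No paired analysis was possible because the labels give the libraries of the groups no replicate numbers that pair them. With FPKM as deposited, signs turned for Syne2 in cardiomyocytes (-0.26), for Lemd3 (-0.047), Sun1 (-0.33) and Syne2 (-0.13) in fibroblasts, and for the ventricle slopes of Lmna (-0.0020), Lemd3 (-0.085) and Syne1 (-0.12). With mitochondrial genes removed and sums equalised, they turned for Syne2 in cardiomyocytes (-0.36), for Lemd3 (-0.046), Sun1 (-0.33) and Syne2 (-0.13) in fibroblasts, for Syne2 between later cell types (-0.18), and for the slopes of Lemd3 (-0.071) and Syne1 (-0.11). That scaling shifts the median of all genes by -0.12 between neonatal and by -0.21 between later cell types. With unnamed transcripts added, chosen after seeing the data, Sun1 in fibroblasts was -0.0034 and 1 member was called between neonatal cell types. With PN28 and PN90 set against E17 and PN1, Syne1 was -0.022 and Lbr lost its call (-0.53, adjusted p = 0.051). In fits of the 4 libraries compared, Syne2 in cardiomyocytes was -0.018, 3063 genes were called in fibroblasts (4889 in the shared fit) and 5 members between neonatal cell types. The cause was not tested in any of these.

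For isoforms, adding 0.1 left 1 member isoform called between neonatal cell types and 0 isoforms over ventricle stages, and adding 2 gave 457 isoforms there, 1 of them of a member. The Sun2-201 call in cardiomyocytes was lost with 0.1 added (adjusted p = 0.065) and with genes from 1 FPKM (adjusted p = 0.054), Tmpo-203 between neonatal cells with 0.1 added (adjusted p = 0.053), and with 2 added Tmpo-202 in cardiomyocytes (adjusted p = 0.085) and Tmpo-204 between later cells (adjusted p = 0.057).

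Leaving out 1 library at a time gave 6345 to 9196 genes called in cardiomyocytes (5 to 8 members), 2731 to 6184 in fibroblasts (3 to 6), 5304 to 8005 for the difference of the changes (3 to 7), 2602 to 6465 between neonatal cell types (1 to 4), 8534 to 9690 between later cell types (8 to 9) and 1225 to 4495 over ventricle stages (1 to 5). Isoform counts ran over 1709 to 2410 in cardiomyocytes (6 to 10 of members), 187 to 671 in fibroblasts (0), 405 to 1018 between neonatal cell types (0 to 2), 3237 to 3602 between later ones (8 to 9) and 0 to 252 in ventricles (0). Signs turned within these ranges for Syne2 in cardiomyocytes (-0.0049 to 0.18), in fibroblasts (-0.074 to 0.50), in the difference (-0.44 to 0.14) and between later cell types (-0.25 to 0.32). They turned in fibroblasts for Lmna (-0.076 to 0.98), Sun1 (-0.088 to 0.071), Lbr (-0.28 to 0.20) and Lmnb2 (-0.27 to 0.095). They also turned between neonatal cell types for Lmnb2 (-0.082 to 0.015) and Sun2 (-0.20 to 0.061), and for the slopes of Lemd3 (-0.0038 to 0.040) and Syne1 (-0.081 to 0.057). Of the gene values of members over all alternatives, 996 kept direction and side of the threshold, 35 lost a call, 29 gained one and 33 turned sign. Of isoform values, 218 kept both and 31 lost a call. Without counts, the depth behind a value is unknown.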
